A study of Arabidopsis thaliana with 83 samples.

Results

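The early auxin response of the Arabidopsis thaliana accession C24 was measured in 9 of 83 whole-seedling arrays, namely all those titled C24 at 0 h, 30 min and 1 h. Each time had 3 arrays, and the 30 min and 1 h arrays were each compared with the same 3 arrays at 0 h. The labels give the accession as C24, the tissue as whole plant and the time in the title. Sterilised and cold-treated seed of all accessions had been cultured for 7 days in shaken liquid ATS medium at 22 °C in constant light, with yellow-filtered light for the last 24 h to protect the auxin indole-3-acetic acid (IAA). The same times were profiled in 6 other accessions, Bay-0, Bl-1, Bur-0, Col-0, Fei-0 and Sha, which serve here only to show where C24 differed. The Bay-0 arrays are labelled both with that strain and as a recombinant inbred line, so their identity is less sure. The auxin dose is not given in the sources used here, and no mock-treated arrays are labelled. A change from 0 h therefore holds the effects of handling and of time together with that of auxin, and these cannot be told apart.

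Auxin enters the nucleus and joins a receptor of the TIR1/AFB family to an Aux/IAA repressor, which is then degraded, so that auxin response factors can switch on their target genes. The targets that respond within minutes include the Aux/IAA genes themselves, GH3 genes, whose enzymes conjugate auxin to amino acids, and SAUR genes, which promote cell expansion. In the root, auxin also starts lateral root formation through LBD transcription factors.

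The signals are deposited Affymetrix ATH1 values on a linear scale, and changes are differences of log2(signal + 16), so a value of 1 is a 2-fold change and changes of dim probe sets are understated. A probe set was called if its adjusted p in limma was under 0.05 and its change was at least 2-fold. Each ± is the standard error (SE) of the model. Nothing in the labels says that the arrays of a group hold separate cultures. Each p and SE reflects only how much arrays of the same group varied, pooled over all 28 groups of the 83 arrays. That variation may be technical. In whole seedlings, fewer cells of a type and less RNA per cell cannot be told apart. The median signal of the 9 arrays lay between 40.1 and 43.2, and arrays at 0 h and at 30 min correlated with the others of their group at r = 0.987 to 0.990 across probe sets. The arrays at 1 h were less alike, with 0.971 between replicates 2 and 3, and the pooled SE does not give this wider spread its own weight. For the GAPDH control, replicate 2 at 1 h also had a ratio of 3' to 5' signal, which reflects RNA quality, of 4.38, against 1.43 to 2.56 in the other 8 arrays. The ratio also moved with time: it was 1.43 to 1.72 at 0 h, 1.55 to 2.22 at 30 min and 2.03 to 2.56 in the other arrays at 1 h. For the actin control it was 0.437 to 0.603 at 0 h and 0.801 to 2.04 at 1 h, so every 1 h array lay above every 0 h array in both controls. The part of this shift in the changes at 1 h was not tested. Results that rest on that array are given with and without it. The shoot genes RCA, LHCB4.1 and LHCB4.2 were bright in every C24 group, with mean signals of 3855, 3472 and 1556 at 0 h, and the root hair expansins EXPA7 and EXPA18 were present at 23.3 and 33.0. None of these 5 genes was called at either time.

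At 30 min 145 probe sets were higher and 56 lower than at 0 h, and at 1 h 176 were higher and 75 lower, of 15922 tested. Together the called probe sets were 1.26% of those tested at 30 min (0.911% higher and 0.352% lower) and 1.58% at 1 h (1.11% and 0.471%). In either direction 85 of the 201 at 30 min and 119 of the 251 at 1 h were listed with 1 gene and could be named. Both comparisons use the same 0 h arrays, and their values are given side by side below. The counts depended on the constant added to the signal, with 75 and 89 called at 30 min and 1 h when 64 was added.

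The largest change of all probe sets at each time was that of the GH3 gene GH3.3. GH3.3 had signals of 55.4, 71.7 and 44.8 at 0 h, 1381, 1395 and 1285 at 30 min, and 2862, 2473 and 2715 at 1 h. The 3 times did not overlap, and the mean signal was 23.6 times that of 0 h at 30 min and 46.8 times at 1 h. On the log2 scale it rose by 4.24 ± 0.14 and 5.22 ± 0.14 (adjusted p = 8.18e-38 and 1.26e-43, limma). WES1, which encodes another auxin-conjugating enzyme of the family, lay at 184, 148 and 144 at 0 h, at 669, 535 and 637 at 30 min, and at 1042, 983 and 1211 at 1 h. Every later array was above every 0 h array, and the rise was 1.85 ± 0.12 and 2.65 ± 0.12. GH3.1 rose by 2.05 ± 0.18 and 2.07 ± 0.18 from signals of 7.39 to 15.9 at 0 h. The fourth measured member moved the other way. GH3.17, a GH3 enzyme with a part in auxin homeostasis, went from 349, 378 and 300.5 at 0 h to 249, 225 and 208 at 30 min and to 166, 138 and 153 at 1 h. Its change was -0.56 ± 0.16 at 30 min, under 2-fold, and it fell by 1.09 ± 0.16 at 1 h (adjusted p = 3.43e-07, limma), or by 0.91 with 64 added, under 2-fold. Of the 4 measured GH3 genes, 3 were called higher at each time and 0 and 1 lower, with medians of 1.95 and 2.36 against 0.00 and 0.01 over all probe sets. Over all probe sets 0.911% and 1.11% were called higher and 0.352% and 0.471% lower.

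**Figure D1:**
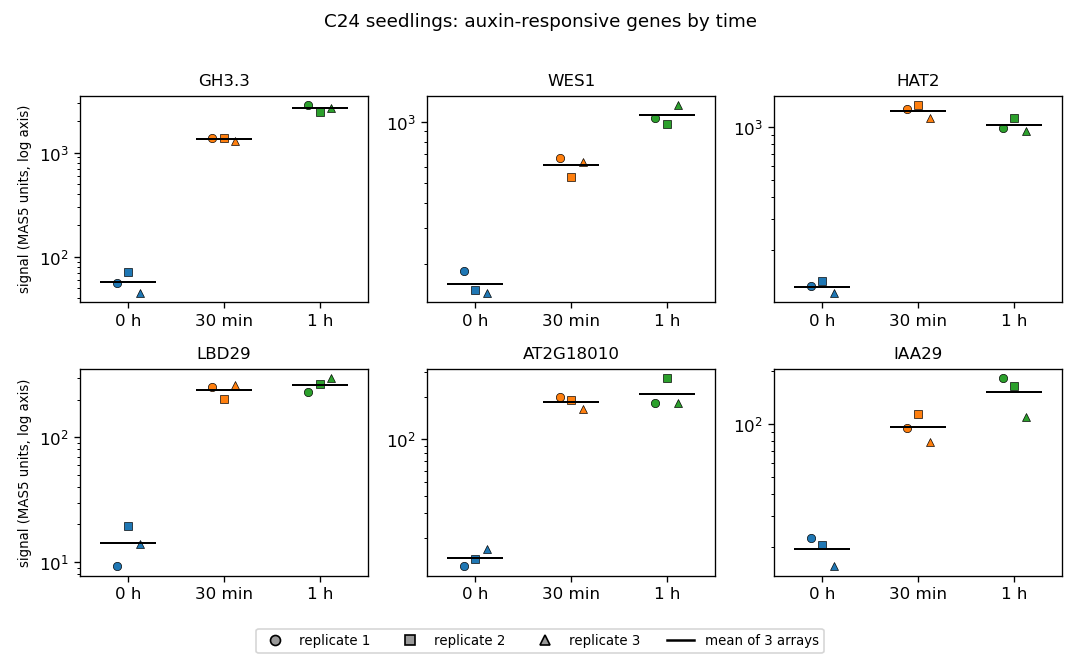
Signal of 6 auxin-responsive genes in each C24 array (points, shaped by replicate) at 0 h, 30 min and 1 h, on log axes, with the mean of 3 arrays as a bar. In each panel all arrays at 30 min and 1 h lie above all arrays at 0 h, and GH3.3 and WES1 are higher at 1 h than at 30 min.

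The direct test between the times separated genes that kept rising from genes that levelled off. From 30 min to 1 h GH3.3 showed 0.98 ± 0.14 and WES1 0.80 ± 0.12 (adjusted p = 2.53e-07 and 3.1e-06, limma), both just under 2-fold. GH3.1 showed 0.03 ± 0.18 over that step, LBD29 0.13 ± 0.18 and HAT2 -0.28 ± 0.13 (adjusted p = 0.962, 0.764 and 0.235).

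Aux/IAA repressors were represented by 3 measured genes of 29 named in the list. IAA29 had signals of 22.6, 20.7 and 15.6 at 0 h, 94.4, 114 and 79.5 at 30 min, and 181, 164 and 110 at 1 h. It rose by 1.65 ± 0.19 and 2.21 ± 0.19, with no overlap between 0 h and the later times, and showed 0.93 at 30 min with 64 added, under 2-fold. IAA30, which lacks the degron that most Aux/IAA proteins carry, lay at 8.29 to 10.8 at 0 h, 33.2 to 45.2 at 30 min and 48.5 to 58.1 at 1 h. It rose by 1.14 ± 0.13 and 1.44 ± 0.13, but with 64 added it was at 0.50 and 0.67 and was not called. IAA18 showed -0.31 ± 0.12 and -0.19 ± 0.12 and did not pass the test.

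Among the SAUR genes, AT2G18010 had signals of 12.6, 14.2 and 16.8 at 0 h, 200, 190 and 163 at 30 min, and 182, 270 and 180 at 1 h. The level reached by 30 min was held at 1 h, and the rise was 2.71 ± 0.17 and 2.87 ± 0.17 (adjusted p = 4.79e-21 and 2.42e-22, limma). The other measured SAUR gene, AT1G43040, showed 0.33 ± 0.15 and 0.15 ± 0.15 and did not pass the test. HAT2, a class II HD-Zip factor that is induced by auxin, stood at 126, 133 and 114 at 0 h, at 1269, 1333 and 1129 at 30 min, and at 996, 1121 and 956 at 1 h. Its mean signal was 10.0 times that of 0 h at 30 min and 8.23 times at 1 h (3.16 ± 0.13 and 2.89 ± 0.13).

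Genes of lateral root initiation were led by LBD29. Its signals were 9.23, 19.3 and 13.9 at 0 h, 253, 204 and 265 at 30 min, and 232, 266 and 297 at 1 h. The rise was 3.1 ± 0.18 and 3.23 ± 0.18. LBD16, which acts with LBD29 in the same process, lay at 13.2 to 20.1, 59.3 to 80.7 and 43.2 to 67.1 at the 3 times and rose by 1.46 ± 0.19 and 1.07 ± 0.19. The call of LBD16 at 1 h ended without replicate 3 at 1 h (0.91), and both calls ended with 64 added (0.76 and 0.53). PUCHI, an AP2-type factor of lateral root formation, showed 0.29 ± 0.15 and 0.43 ± 0.15, and the receptor kinase gene CR4 -0.05 ± 0.16 and 0.04 ± 0.16. Of these 4 measured genes, 2 were called higher and 0 lower at each time, where 0.911% and 1.11% of all probe sets were called higher.

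Other auxin-related lists held 1 call at each time among 4 measured genes, where 0.911% and 1.11% of all probe sets were called higher. AT5G12050, in the list of organ growth regulators, rose by 1.62 ± 0.17 and 1.69 ± 0.17 from signals of 256 to 357 at 0 h. ARL, a growth regulator related to ARGOS, showed -0.37 ± 0.12 at 30 min and 0.59 ± 0.12 at 1 h, under 2-fold. The transport kinase gene WAG2 showed 0.45 ± 0.14 and 0.42 ± 0.14, and the auxin biosynthesis gene YUC2 -0.07 ± 0.13 and 0.02 ± 0.13.

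Of 12 measured expansins, which act on the wall, 0 were called at 30 min and 1, higher, at 1 h. Over all probe sets 0.911% and 1.11% were called higher at 30 min and 1 h. Single calls in lists this small, here and below, are a description only. The one was EXLA1, at 153, 125 and 148 at 0 h and 324, 326 and 292 at 1 h, which rose by 1.07 ± 0.18 and was at 0.99 without replicate 2 at 0 h and 0.88 with 64 added, not called. With no limit on size, 0 expansins were higher and 1 was lower by adjusted p at 30 min, where 3.25% and 1.78% of all probe sets were. At 1 h the numbers were 5 and 1, where 7.86% and 5.70% of all probe sets were. EXPB1 showed -0.69 ± 0.15 and -0.67 ± 0.15. Of 7 measured xyloglucan hydrolases XTH19 was called at 30 min, at 1.03 ± 0.17. It was at 0.93 without replicate 1 at 0 h and at 0.998 without replicate 3 at 0 h. Without replicate 1 at 30 min it was at 0.94, and with 64 added at 0.93. At any size 4 xyloglucan hydrolases were higher and 1 was lower by adjusted p at 1 h, with a median change of 0.56 in the list. U-box ubiquitin ligases had 1 call in 7: PUB23, a negative regulator of immune and drought responses, went from 45.7, 56.0 and 50.8 to 184, 165 and 154 at 30 min and back towards 99.2, 106 and 100 at 1 h. It rose by 1.46 ± 0.12 at 30 min and showed 0.82 ± 0.12 at 1 h, under 2-fold, with a step of -0.64 ± 0.12 between the times (adjusted p = 0.000187, limma).

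Further genes were named for the size of their rise at 30 min. AT2G32020, of the acyltransferase type, stood at 13.2 to 18.0 at 0 h and at 132, 129 and 133 at 30 min, and was back at 61.0 to 71.3 at 1 h (2.20 ± 0.16 and 1.33 ± 0.16, the latter 0.68 with 64 added and not called). AT4G27280, a calcium-binding EF-hand protein gene, rose by 1.75 ± 0.16 and 1.39 ± 0.16, and AT5G39670, of the same type, rose by 1.71 ± 0.17 at 30 min and showed 0.96 ± 0.17 at 1 h. The RING-type gene AT5G41400 rose by 1.94 ± 0.19 and 1.90 ± 0.19, and AT5G62280 by 1.87 ± 0.15 and 1.84 ± 0.15. AT3G28420 rose by 1.70 ± 0.18 and 1.57 ± 0.18 from signals of 7.26 to 11.1, and with 64 added the changes were 0.82 and 0.74, under 2-fold. AT5G39580, a peroxidase gene, rose by 1.70 ± 0.17 and 2.14 ± 0.17. At 1 h AT5G50335 (2.36 ± 0.29), the chitinase-family gene AT1G02360 (1.94 ± 0.19), AT5G40590 (1.88 ± 0.22) and AT1G70270 (1.82 ± 0.19, and 0.98 with 64 added, not called) were also among the 15 largest rises of called probe sets listed with 1 gene. Some probe sets not listed with 1 gene rose more and could not be named.

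Fewer probe sets were lower, and genes of the low-oxygen response were among them. At 30 min some probe sets not listed with 1 gene fell more than any gene given here and could not be named. Low-oxygen genes are switched on by group VII ERF factors, which are unstable while oxygen is plentiful. AT4G10270, of the wound-responsive family, had signals of 307, 297 and 447 at 0 h, 60.7, 64.1 and 67.4 at 30 min, and 66.5, 61.4 and 53.3 at 1 h. The low level of 30 min was held at 1 h, and it fell by 2.17 ± 0.16 and 2.24 ± 0.16 on the log2 scale. AT1G33055 went from 89.6, 61.5 and 98 to 22.4, 12.7 and 12.9 and then to 10.5, 2.11 and 7.32, and fell by 1.62 ± 0.21 and 2.13 ± 0.21 (0.87 at 30 min with 64 added, not called). AT3G10040, a trihelix factor gene induced by low oxygen, went from 57.5 to 94.6 at 0 h to 18.3 to 20.2 at 30 min and 14.0 to 31.2 at 1 h. It fell by 1.37 ± 0.17 and 1.32 ± 0.17 (0.74 and 0.71 with 64 added, not called). Of 9 measured low-oxygen genes 3 were called lower at each time and 0 higher, where 0.352% and 0.471% of all probe sets were called lower. At any size 3 passed the adjusted p downwards at 30 min and 6 at 1 h, where 1.78% and 5.70% of all probe sets did. The median change of the list at 1 h was -0.85, against 0.01 over all probe sets. Members that did not pass included AT1G19530, at 0.16 ± 0.25 and 0.66 ± 0.25, and AT2G17850, at 0.11 ± 0.18 and 0.02 ± 0.18. The list was chosen with an earlier fall of these genes in the same data known, and its counts are a description.

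**Figure D2:**
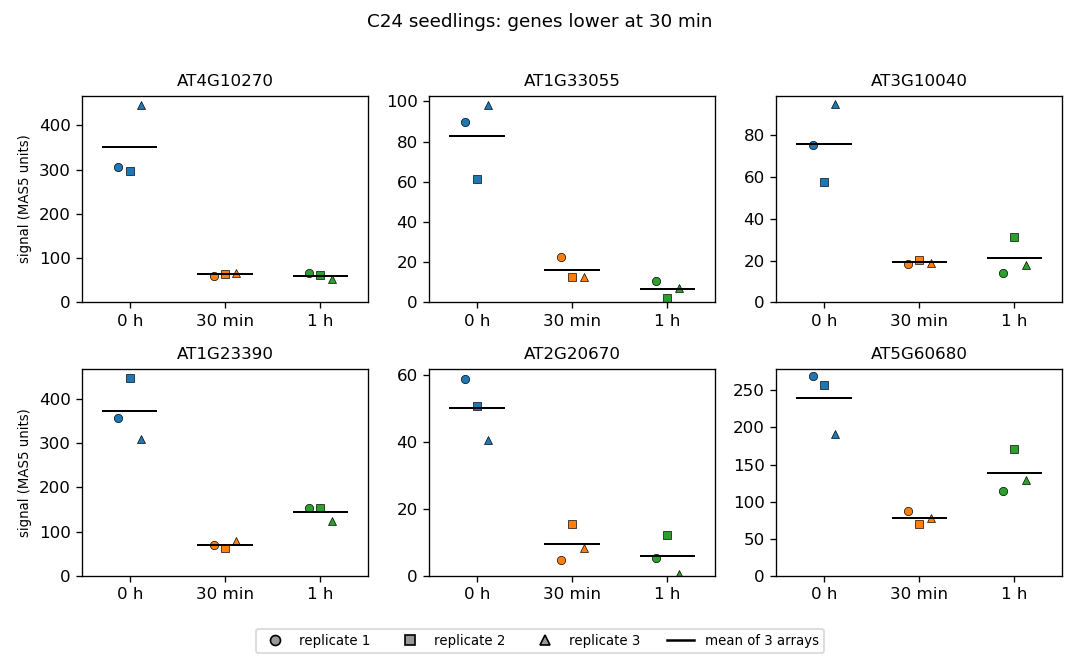
Signal of 6 genes that were lower at 30 min in each C24 array (points, shaped by replicate) at 0 h, 30 min and 1 h, on linear axes from 0, with the mean of 3 arrays as a bar. AT4G10270, AT1G33055 and AT3G10040 stayed low at 1 h, while AT1G23390 and AT5G60680 were partly back.

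Other falls had different courses. AT1G23390, of the kelch-repeat F-box family, went from 357, 448 and 309 at 0 h to 68.5, 61.9 and 77.7 at 30 min and was at 153, 153 and 124 at 1 h. It fell by 2.17 ± 0.15 at 30 min and by 1.27 ± 0.15 at 1 h, and the step between was 0.90 ± 0.15 (adjusted p = 8.59e-06, limma). AT5G60680 fell by 1.43 ± 0.12 at 30 min and showed -0.73 ± 0.12 at 1 h. AT2G20670 fell by 1.39 ± 0.21 and 1.61 ± 0.21 from signals of 40.8 to 59.0 at 0 h, and by 0.64 and 0.71 with 64 added, not called.

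The test between 30 min and 1 h called 81 probe sets higher and 42 lower at 1 h, 0.773% of those tested (0.509% and 0.264%). Among the named genes with the largest steps, 3 were low at 30 min and back at 1 h. PAP85, a vicilin-type seed storage protein gene, had signals of 77.7, 50.0 and 80.8 at 0 h, 1.02, 5.13 and 15.9 at 30 min, and 90.0, 116 and 71.9 at 1 h. LCR67, a plant defensin gene also known as PDF1.1, had 84.9, 73.4 and 87.2, then 0.364, 3.77 and 43.8, then 72.7, 305 and 91.7. AT3G54940, of the papain-type protease family, had 53.7, 39.1 and 46.7, then 2.52, 1.18 and 20.0, then 52.6, 105 and 74.2. In each of these genes the 30 min arrays lay below all 0 h and 1 h arrays, with replicate 3 the highest of the 3 at 30 min and replicate 2 the highest at 1 h. They fell at 30 min by 1.90 ± 0.35, 1.86 ± 0.38 and 1.46 ± 0.28 (adjusted p = 4.29e-05, 0.000265 and 0.000125, limma). From 30 min to 1 h they rose by 2.25 ± 0.35, 2.44 ± 0.38 and 2.01 ± 0.28. Without replicate 2 at 1 h these rises were 2.10, 1.86 and 1.80. With 64 added the falls were 0.90, 0.91 and 0.63, not called. When the 12 C24 arrays were fitted alone, LCR67 at 30 min had adjusted p = 0.0513. At 3 h their mean signals were low again, at 26.4, 38.3 and 15.8.

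AT1G65490 had the same course at 30 min, with 168, 121 and 194 at 0 h, 36.4, 85.8 and 30.6 at 30 min, and 189, 82.2 and 279 at 1 h. Unlike the 3 genes above, its signal in replicate 2 at 1 h was the lowest of that time, and at 3 h its mean was 150. It fell by 1.47 ± 0.28 at 30 min (0.99 with 64 added, not called) and rose by 1.52 ± 0.28 from there to 1 h. The chitinase-family genes AT2G43620 and CHI (AT2G43570) rose over the same step by 1.96 ± 0.17 and 1.71 ± 0.26 (CHI 0.82 with 64 added, not called). AT2G43620 went from 511, 430 and 527 at 0 h to 281, 342 and 222 at 30 min and to 1054, 728 and 1874 at 1 h. At 1 h it rose by 1.19 ± 0.17 against 0 h, and by 0.83 without replicate 3 at 1 h, under 2-fold. WRKY53, a factor of defence and leaf senescence, followed with 57.6 ± 1.18 at 0 h, 44.7 ± 3.73 at 30 min and 159 ± 35.8 at 1 h (SD, n = 3) and rose by 1.23 ± 0.16 at 1 h, or 0.86 with 64 added, under 2-fold. In the touch and rapid stress list it was the 1 call in 4 measured genes at 1 h, with 0 calls at 30 min. Of all probe sets 1.11% were called higher at 1 h.

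**Figure D3:**
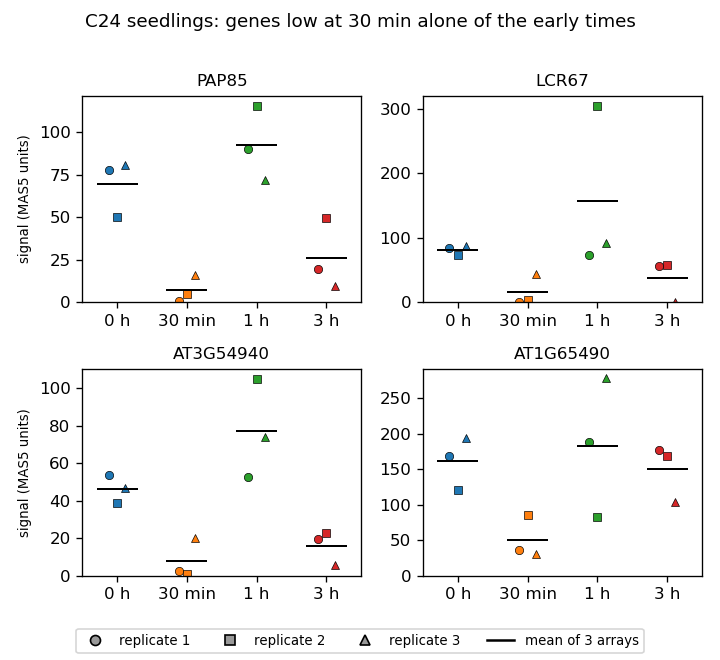
Signal of 4 genes in each C24 array (points, shaped by replicate) at 0 h, 30 min, 1 h and 3 h, on linear axes from 0, with the mean of 3 arrays as a bar. All arrays at 30 min lie below all arrays at 0 h in each panel, and PAP85, LCR67 and AT3G54940 are high again at 1 h and low at 3 h.

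Other named genes with large steps were called at 1 h and not at 30 min. AT1G26250, of the extensin family of wall proteins, had signals of 25.3, 43.5 and 35.1 at 0 h, 23.4, 38.0 and 58.4 at 30 min, and 389, 728 and 416 at 1 h. Arrays at 0 h and 30 min overlapped and those at 1 h stood far above both, with a mean signal 14.8 times that of 0 h (3.34 ± 0.29, adjusted p = 9.05e-15, limma). Without replicate 2 at 1 h the rise of AT1G26250 was 3.06. At 3 h its mean was 49.6.

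Several genes were low at 1 h in the same arrays. AT3G19430, of a family related to late embryogenesis abundant proteins, had 338, 341 and 257 at 0 h, 323, 292 and 392 at 30 min, and 119, 16.7 and 114 at 1 h. The lectin genes AT1G52070 and AT1G52060, of the jacalin type, shared this course. AT1G52070 had 426, 440 and 363 at 0 h, 520, 454 and 571 at 30 min, and 184, 32.9 and 254 at 1 h. AT1G52060 had 489, 422 and 381, then 600, 591 and 559, then 187, 54.3 and 253. AT5G54370 had 464, 484 and 439, then 571, 484 and 575, then 176, 62.5 and 281. In these 4 genes each 1 h array lay below every earlier array, and replicate 2, the array with the GAPDH ratio of 4.38, was the lowest. They fell at 1 h by 1.97 ± 0.40, 1.62 ± 0.34, 1.5 ± 0.32 and 1.53 ± 0.33 (adjusted p = 0.000169, 0.000296, 0.000308 and 0.000506, limma). Without replicate 2 the last 3 were at -0.87, -0.93 and -0.999, with adjusted p = 0.085, 0.0573 and 0.0594, and were not called, while AT3G19430 was at -1.30 (adjusted p = 0.0318) and was called. AT5G60530 fell by 1.42 ± 0.29 and was at -0.95 without that array and with 64 added, not called either way. At 3 h the means of AT3G19430, AT1G52070, AT1G52060 and AT5G54370 were 296, 430, 593 and 481, above those of 1 h. The part of RNA quality in these falls was not tested beyond leaving that array out.

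In other falls at 1 h all 3 arrays were low. AT1G70720, of the pectin methylesterase inhibitor family, went from 48.9, 61.5 and 49.0 at 0 h to 31.0, 30.6 and 30.9 at 30 min and 3.37, 5.08 and 6.66 at 1 h, and fell by 1.71 ± 0.18 (0.76 with 64 added, not called). AT3G06460, of the fatty acid elongase family, went from 120, 131 and 105 to 33.5, 20.9 and 31.3 at 1 h and fell by 1.60 ± 0.22 (0.98 with 64 added, just under 2-fold). AT3G45710, of the nitrate and peptide transporter family, went from 110 to 144 at 0 h to 34.0 to 47.1 at 1 h and fell by 1.33 ± 0.23 (0.85 with 64 added, not called). AT4G13860, a glycine-rich RNA-binding protein gene, fell by 1.48 ± 0.20 (0.93 with 64 added, not called) from 97 to 146 at 0 h to 29.1 to 35.7 at 1 h. The detoxification genes GSTU26 and UGT72E2 fell by 1.01 ± 0.21 and 1.05 ± 0.18 at 1 h, and were the 1 call among 10 glutathione S-transferases and the 1 among 31 UDP-glycosyltransferases. Of all probe sets 0.471% were called lower at 1 h. GSTU26 was under 2-fold without replicate 2 at 0 h or replicate 1 or 2 at 1 h (0.88 to 0.95), UGT72E2 without replicate 2 at 0 h (0.99), and both with 64 added (0.80 and 0.84). The lists of cytochrome P450 genes (15 measured) and RALF-like peptide genes (6 measured) had 0 calls at either time in limma. By the unadjusted p under 0.05 their changes of 2-fold were also 0. The first list was made by symbol prefix and also holds CYP71 and CYP59, which are cyclophilin genes. Between 30 min and 1 h 1 of its 15 genes was called higher, where 0.509% of all probe sets were. Since 1.26% and 1.58% of all probe sets were called at 30 min and 1 h, lists this small cannot show a lack of response.

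**Figure D4:**
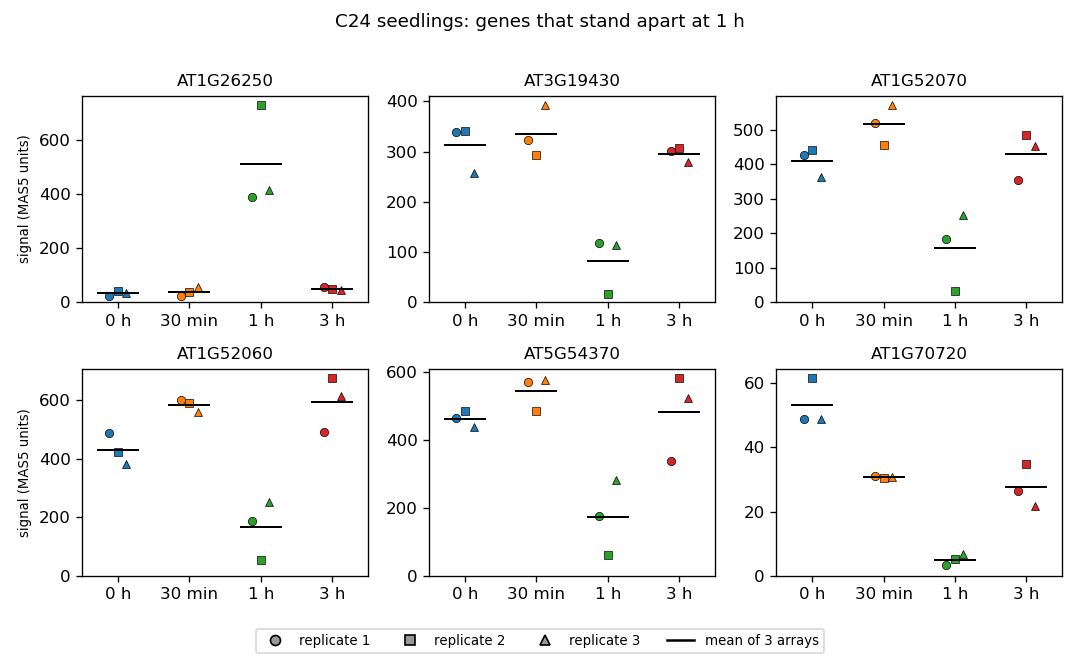
Signal of AT1G26250 and of 5 genes that were lower at 1 h in each C24 array (points, shaped by replicate) at 0 h, 30 min, 1 h and 3 h, on linear axes from 0, with the mean of 3 arrays as a bar. AT1G26250 is high at 1 h only among these times, and in AT3G19430, AT1G52070, AT1G52060 and AT5G54370 replicate 2 at 1 h is the lowest point.

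The response of C24 was then set against that of the other 6 accessions, each against its own 0 h arrays. Of the 15922 probe sets tested, these had from 88 (Fei-0) to 213 (Col-0) called higher at 30 min. At 1 h they had from 111 (Fei-0) to 303 (Bur-0). Called lower were 18 (Bay-0) to 119 (Bur-0) at 30 min and 37 (Fei-0) to 163 (Bur-0) at 1 h. Of the 145 probe sets higher in C24 at 30 min, 42 were called higher in all 6 others, 92 in some of them and 11 in 0 of them, and of the 176 at 1 h the numbers were 51, 107 and 18. Calls that were lower were shared less widely by count: 22 of 56 at 30 min and 34 of 75 at 1 h were called lower in 0 of the other accessions. Each of the others had fewer lower than higher calls to share, and these counts do not by themselves show a difference. In the direct test of the difference given below, 18 of those 22 and 16 of those 34 were called in the same direction. Of the 11 and 18 higher calls found in 0 others, that test called 3 and 5. It uses the same C24 arrays as the calls. With Col-0, the accession the array was designed on, C24 shared 109 higher calls at 1 h, 61.9% of those of C24 and 44.9% of those of Col-0. Lower calls shared with Col-0 numbered 12, or 16.0% and 29.3%. Col-0 had 243 higher and 41 lower calls at 1 h.

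The difference was tested as the response of C24 minus the mean response of the 6 others. At 30 min 7 probe sets were higher and 26 lower by this test, 0.207% of those tested (0.0440% and 0.163%). At 1 h 16 were higher and 29 lower, 0.283% (0.100% and 0.182%). Normalized by quantiles, 10 were higher and 34 lower at 1 h, so the share that was higher went from 35.6% to 22.7%. The count at 1 h also depended on single arrays: 21 were higher and 16 lower without replicate 2 at 1 h, and 17 and 57 without replicate 3 at 1 h. The auxin genes above were not among the calls. GH3.3 differed by 0.02 ± 0.15 at 30 min and -0.14 ± 0.15 at 1 h, where the others ranged from 4.62 in Col-0 to 6.23 in Bur-0 at 1 h. HAT2 differed by 0.07 ± 0.14 and 0.11 ± 0.14, and IAA29 by 0.00 ± 0.20 and -0.05 ± 0.20. LBD16 had the smallest rise of the 7 accessions at each time, with differences of -0.41 ± 0.20 and -0.80 ± 0.20 (adjusted p = 0.423 and 0.016, limma), under 2-fold. AT2G18010 had the largest rise of the 7 at each time, but others came close. At 30 min C24 had 2.71 and Bl-1 2.54, and at 1 h C24 had 2.87 and Bay-0 2.81. Its differences from the mean of the others were 0.48 ± 0.19 and 0.67 ± 0.19 (adjusted p = 0.267 and 0.0357, limma), under 2-fold. GH3.17 differed by -0.85 ± 0.17 at 1 h (adjusted p = 0.00168), under 2-fold, where the others ranged from -0.74 in Bur-0 to 0.03 in Bay-0.

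**Figure D5:**
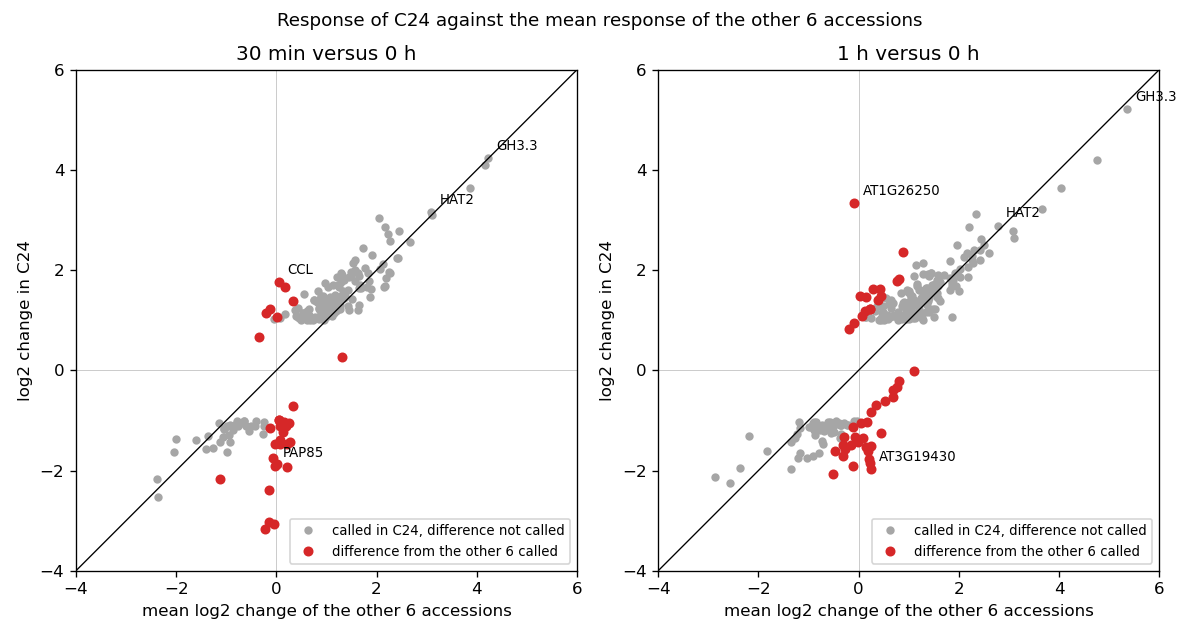
Log2 change in C24 (vertical) against the mean log2 change of the other 6 accessions (horizontal) at 30 min and at 1 h, with 1 point for each probe set called in C24 or in the test of the difference. GH3.3 and HAT2 lie near the line of equal response, while CCL and PAP85 at 30 min and AT1G26250 and AT3G19430 at 1 h lie off it (red, difference called).

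Among called probe sets listed with 1 gene, the smallest p for a difference at 30 min was that of CCL. CCL has a transcript under clock control. Its signals in C24 were 108, 102 and 89.7 at 0 h, 431, 361 and 344 at 30 min, and 177, 179 and 152 at 1 h. It rose by 1.77 ± 0.20 at 30 min, and the responses of the others ran from -1.54 in Bur-0 to 1.12 in Sha. The difference was 1.70 ± 0.21 (adjusted p = 9.76e-08, limma), and the step to 1 h was -1.09 ± 0.20, or -0.99 without replicate 1 at 30 min, under 2-fold. AT3G62550, of the universal stress protein family, followed the same course, with 41.4, 56.3 and 32.7 at 0 h, 148, 104 and 113 at 30 min, and 59.1, 44.3 and 36.0 at 1 h. Its responses at 30 min in the others ran from -1.70 in Bur-0 to 0.97 in Sha. Sha had a similar course, with mean signals of 21.8, 57.8 and 12.7 at these times. AT3G28850, of the glutaredoxin family, went from 58.3, 62.6 and 78.0 to 155, 216 and 235 at 30 min and to 260, 263 and 280 at 1 h. Its differences were 1.05 ± 0.20 and 1.02 ± 0.20. The latter was under 2-fold without replicate 1 or 2 at 0 h (0.95 and 0.99), without replicate 3 at 1 h (0.99) and with 64 added (0.85). PAP85 fell at 30 min in C24 alone among the called responses, and the others ranged from -0.69 in Bl-1 to 0.97 in Fei-0. The mean signal of PAP85 at 0 h was below the added 16 in Bay-0 (11.0), Sha (7.37) and Bur-0. In Bl-1 it was 19.3 ± 32.3 (SD, n = 3), with the highest array at 56.6. A fall of PAP85 could hardly show in these accessions, so they cannot tell whether it was particular to C24. Its level before treatment varied between accessions, with mean signals at 0 h of 69.5 ± 17.0 in C24, 126 ± 49.8 in Fei-0, 29.7 ± 13.6 in Col-0 and 6.77 ± 4.91 in Bur-0 (SD, n = 3). LCR67 and AT3G54940 differed by -1.88 ± 0.41 and -1.44 ± 0.31 at 30 min. Without replicate 1 or replicate 2 at 30 min LCR67 had adjusted p = 0.092 or 0.0567, and without replicate 2 AT3G54940 had 0.0567, so these differences were not called there.

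At 1 h, among called probe sets listed with 1 gene, the smallest p was that of AT1G26250. Its difference was 3.43 ± 0.32 (adjusted p = 3.86e-12, limma). Its response in the others ran from -2.61 in Bl-1 to 0.94 in Sha, and its mean signal at 0 h from 9.91 ± 3.45 in Bur-0 to 208 ± 15.9 in Bl-1 (SD, n = 3). AT5G03350, a lectin-like gene, went from 36.0, 24.1 and 44.9 at 0 h to 129, 144 and 102 at 1 h in C24 and rose by 1.48 ± 0.20, against -1.63 in Bl-1 to 0.93 in Bur-0. AT1G26380, a berberine bridge enzyme-like gene, went from 5.79 to 16.2 at 0 h to 53.1 to 80.7 at 1 h and rose by 1.62 ± 0.18, against -0.23 in Bl-1 to 1.26 in Bur-0. AT3G18250 rose by 1.62 ± 0.15, while Sha had a larger response of 1.82. With 64 added these 3 rises and their differences were under 2-fold. The defence list, with SAG101 and PDF1.2 measured of 8 genes, had 0 calls in this difference and 0 at any size. With 0.283% of all probe sets called in the difference, a list this small cannot show a lack of it. AT1G70720, AT4G13860 and AT1G14960, a gene of the Bet v 1 family, had responses below those of all 6 others. Their signals at 0 h differed between accessions, and where the signal was near or below the added 16 a fall could hardly show. The array was designed on Col-0. Whether a low signal in another accession reflects its transcript or its match to the probes was not tested. At 0 h AT4G13860 had a mean signal of 121 ± 24.4 in C24 and of 6.36 to 14.8 in Bay-0, Bur-0, Fei-0 and Sha. AT1G70720 was at 53.1 ± 7.26 in C24 and at 11.3 to 17.6 in Bl-1, Bur-0 and Sha (SD, n = 3). AT1G14960 was low at 0 h in Sha alone, at 19.5, against 236 to 947 in the other 5 of these accessions. In C24 it went from 727, 975 and 703 at 0 h to 296, 257 and 366 at 1 h and fell by 1.34 ± 0.22, where the others ranged from -0.24 in Fei-0 to 0.46 in Bay-0. AT3G19430, AT1G52070, AT1G52060 and AT5G54370 differed by -2.22 ± 0.43, -1.80 ± 0.37, -1.74 ± 0.34 and -1.69 ± 0.36. Without replicate 2 at 1 h these differences had adjusted p of 0.0627, 0.156, 0.0816 and 0.143 and were not called. The same 4 genes had responses of 2.56, 2.58, 2.52 and 1.94 in Bl-1 at 1 h, so the mean of the others holds responses of both directions. The title numbers run through accessions and times in turn, so time and accession cannot be told apart from an order of processing.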

How the data were processed

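The values deposited by the authors are linear signal intensity, 1 for each probe set on each array, from MAS5 and GCOS per the submitters' processing notes (no version is given in the sources used here). Without the lowest and highest 2%, their mean was 99.96 on each array, so they had been scaled. Of 22810 probe sets, 64 controls were set aside and the 30% with the lowest mean left out, which left 15922. Genes were named from the platform annotation where a probe set had 1 gene (13513, of which 8674 were kept, RefSeq matching 13436 through the gene ID and 48 through the locus tag). Well-known auxin genes without such a probe set carry no value here. Log2(signal + 16) was fitted in limma 3.58.1 (R 4.3.3) with 1 mean for each of 28 groups over all 83 arrays and a trended prior (55 residual and 13.2 prior degrees of freedom), with Benjamini-Hochberg adjustment over all 15922, two-sided. The fit was tested on simulated data. The small number of arrays per group limits the precision.

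Genes were named by rule from called probe sets that list a single gene: the 15 largest rises and 10 largest falls at each time, the 6 largest steps each way, the 8 smallest p for a difference at each time and up to 4 called members of each of 35 lists, with GH3.3, HAT2, LBD29, WES1, IAA29 and IAA30 named whatever their values. Uncalled list members are given as values only. The members and lists were chosen with earlier results of these data known. Replicate numbers did not pair the C24 arrays (r between deviations of same-numbered arrays from -0.08 to 0.09). Alternatives were a pseudocount of 1 or 64, no filter or one of 50%, quantile normalization, a replicate block, the 12 C24 arrays alone, and each of the 9 arrays left out.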

Additional observations from a re-analysis of the deposited data

Results flagged for a closer look

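The response of C24 differed from the mean response of the other 6 accessions in the genes given here, with differences on the log2 scale. The direct test was limma, at adjusted p under 0.05 and at least 2-fold. These genes have the smallest p at each time among called probe sets listed with 1 gene. Some probe sets not listed with 1 gene differed more at 30 min and could not be named. At 30 min the difference was 1.70 for CCL, 1.35 for AT3G62550, 1.05 for AT3G28850, 1.00 for UPB1, a basic helix-loop-helix factor of root growth, and 1.05 for AT4G32340. It was -1.04 for AT1G23390, -1.55 for AT1G65490 and -1.87 for PAP85. In C24 itself UPB1 showed 0.66 ± 0.19 at 30 min, under 2-fold, so its difference also holds the responses of the others, down to -1.0 in Bur-0. That of AT1G23390 holds accessions on both sides of C24, since Bur-0 had -2.33 and Bay-0 0.01. For AT3G62550 the others held falls and rises, with -1.70 in Bur-0 and 0.97 in Sha. AT4G32340 had 1.06 in C24, while Sha had 0.87 and Bur-0 -1.03. For PAP85 the mean of the others holds accessions with signals at 0 h near or below the added 16, where a fall could hardly show.

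At 1 h the difference was 3.43 for AT1G26250, 1.34 for AT3G18250, 1.44 for AT5G03350, 1.03 for AT5G48175 and 1.19 for AT1G26380. It was -1.40 for AT1G70720, -1.34 for AT4G13860 and -1.42 for AT1G14960.

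Many of these calls depended on the processing. With 64 added, 12 of the 16 differences were under 2-fold. At 30 min these were UPB1 (0.48), AT4G32340 (0.59), AT3G28850 (0.81), AT1G23390 (-0.81), AT3G62550 (0.93) and PAP85 (-0.94). At 1 h they were AT1G70720 (-0.60), AT1G26380 (0.62), AT3G18250 (0.63), AT5G48175 (0.68), AT4G13860 (-0.87) and AT5G03350 (0.96). With 1 added PAP85, AT4G13860 and AT5G48175 had adjusted p of 0.069, 0.0825 and 0.0748 in limma and were not called. Normalized by quantiles, UPB1 was at 0.97 and AT5G48175 at 0.996, under 2-fold.

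Single arrays also ended calls. Without replicate 2 at 0 h UPB1 was at 0.76 (adjusted p = 0.0852, limma), AT4G32340 at 0.96 and AT1G23390 at -0.90. UPB1 was at 0.98 without replicate 1 at 30 min, and AT1G23390 at -0.98 without replicate 2 at 30 min. At 30 min AT3G28850 was at 0.94 to 0.9997 without replicate 1 at 0 h or replicate 2 or 3 at 30 min. AT5G48175 was at 0.95 without replicate 3 at 0 h and 0.90 without replicate 3 at 1 h.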

How the results depend on the processing

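With 1 added in place of 16, 323 probe sets were called at 30 min, 489 at 1 h and 277 between the times, and 56 and 129 in the difference from the other accessions at 30 min and 1 h. With 64 added the numbers were 75, 89, 40, 10 and 13. No filter, a 50% filter, quantile normalization, the 12 C24 arrays alone (the first 3 counts) and the replicate block left each count within 1.5 times that reported. With the replicate block 201, 251, 122, 34 and 45 were called. Leaving out 1 C24 array gave 197 to 206 at 30 min, 248 to 284 at 1 h, 115 to 156 between the times, and 26 to 38 and 37 to 74 in the differences. Of the 136 calls of named genes, 65 ended with 64 added and 15 without replicate 2 at 1 h, 0 ended with the replicate block, and 0 reversed under any alternative. The cause of the moves was not tested.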
